A study of Schizosaccharomyces pombe with 4 samples.

Results

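The features described here are the annotated genes and non-coding RNAs that lie within 100 kb of either end of the assembled chromosome III of the fission yeast Schizosaccharomyces pombe. They were chosen by position alone: every row of the authors' expression table on that chromosome that starts within the first 100 kb or ends within the last 100 kb of its 2452883 bases, apart from ribosomal RNA rows. This gave 99 of the 7023 features in the table. The left end held 50 of them, made up of 30 protein-coding genes, 18 non-coding RNAs, 1 pseudogene and 1 tRNA, and the right end held 49, made up of 35 protein-coding genes and 14 non-coding RNAs. The study compared poly(A)-enriched, strand-specific RNA-seq libraries of a prototrophic wild type (WT) with those of a strain carrying spt6-1, a mutant allele of spt6, with 2 libraries for each. Both strains were grown in rich medium (YES) at 30 °C and then kept at 37 °C for 2 h, so the WT libraries had the same heat exposure. The labels do not say whether the 2 libraries of a strain came from separate cultures, and the spread behind the p-values may therefore be technical.

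Spt6 is a histone chaperone that travels with RNA polymerase II and restores nucleosomes behind it. Cells without full Spt6 function are known to start transcription inside genes and on the opposite strand, and in fission yeast Spt6 is also known to take part in heterochromatin. The ends of chromosome III differ from the other chromosome ends of this yeast: the arrays of ribosomal DNA repeats, from which the large ribosomal RNAs are made, sit there, and the ordinary genes begin only on their inner side. The ends of chromosomes I and II carry silenced subtelomeric genes, many of them members of repeated families.

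Sense reads numbered 36520471 in WT replicate 1, 17093322 in WT replicate 2, 39693042 in spt6-1 replicate 1 and 16894607 in spt6-1 replicate 2. Every level is in RPKM, the unit of the deposited table, in which reads are divided by the length of the feature and by the size of the library; 1 read on a 1-kb feature was worth between 0.0278 and 0.0581 RPKM, which bounds what low values can show. Ribosomal RNA features took 12.8% and 6.43% of the sense reads in WT and 17.8% and 3.73% in spt6-1, a share that differed more between replicates than between strains. The library size that scales spt6-1 replicate 1 corresponded to 70.5% of its sense reads, against 98.4% to 102% in the other libraries, so its RPKM values stand higher for the same share of reads. The sense RNA of spt6 itself was 65.5 and 61.6 RPKM in WT, against 12.7 and 8.32 in spt6-1, a log2 difference of -2.57 ± 0.24 (SE; limma, adjusted p = 5.39e-04), so the labels and the targeted gene went together.

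Outermost on both sides lay features of the ribosomal DNA. The assembly holds 11 ribosomal RNA features at these ends, 7 on the left and 4 on the right, and 3 pairs of them had identical read numbers in all 4 libraries, so reads were counted at every copy they matched. The first of the 99 features starts at base 23658 on the left, and the last ends at base 2449506 on the right. SPNCRNA.1299 (chrIII:2448764-2449506, plus strand, ASM294v2), an annotated non-coding RNA 3.38 kb from the right end, lies in the spacer between the 28S gene and the next, partial 18S gene. Its sequence recurs in the left-end repeats: over 743 aligned bases each of the 2 left copies differed at 3 positions, an identity of 99.6%. RNA from either place would be read as the same feature.

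SPNCRNA.1299 had the largest sense difference among the 46 tested features of the left end and 48 of the right. It was at 2.66 and 1.64 RPKM in WT and at 94.9 and 104 RPKM in spt6-1. Both mutant libraries stood far above both WT libraries, with 71 and 21 reads in WT against 1973 and 1339 in spt6-1. The log2 change was 5.26 ± 0.23 (SE; limma on log2(RPKM + 0.5), adjusted p = 6.68e-05), or 38.4-fold on that scale. Its antisense strand moved too, from 0.337 and 0.313 RPKM to 48.8 and 60.3 RPKM, and this value stood outside the antisense test, which covered protein-coding rows. Ribosomal RNA took 12.8% and 6.43% of sense reads in WT and 17.8% and 3.73% in spt6-1, and its part in the result was not tested. Which of the repeats the RNA came from cannot be told apart.

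At the inner edge of the left repeats lie SPNCRNA.1094 (chrIII:23658-23889) and SPNCRNA.1095 (chrIII:23919-24438), both on the minus strand upstream of an 18S gene, and each has 4 further copies at 99.6% to 100% identity in the repeats of both ends. SPNCRNA.1094 was at 70.8 and 69.4 RPKM in WT and at 182 and 385 RPKM in spt6-1, a log2 change of 1.91 ± 0.38 (adjusted p = 0.0111). Its neighbour SPNCRNA.1095 was at 219 and 41.1 RPKM in WT and at 90.2 and 163 RPKM in spt6-1, so its groups overlapped and its log2 difference of 0.35 ± 0.73 missed the threshold (adjusted p = 0.753). The WT replicates of SPNCRNA.1095 differed from each other more than the strains did.

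Sequence shared between the ends continues on the gene side of the repeats. SPCP20C8.01c (chrIII:28298-29423, minus strand) on the left and SPCC569.01c (chrIII:2434691-2436530, plus strand) on the right are the first protein-coding genes met from either end, both coding for uncharacterized proteins, and they are 99.6% to 99.7% identical where they align. Their read numbers tracked each other, 2301, 735, 2824 and 1412 reads for SPCP20C8.01c in WT 1, WT 2, spt6-1 1 and spt6-1 2, and 2126, 664, 2605 and 1302 reads for SPCC569.01c. The sense level of SPCP20C8.01c was 56.9 and 38.0 RPKM in WT, against 89.6 and 72.6 in spt6-1, with a log2 difference of 0.79 ± 0.27 that missed the threshold (adjusted p = 0.0717). That of SPCC569.01c was 32.2 and 21.0 RPKM in WT, against 50.6 and 41.0 in spt6-1, a log2 difference of 0.80 ± 0.26 (adjusted p = 0.0637). Since the counting could give both genes the same reads, these count as 1 observation, not as agreement between the ends. Both genes also match chromosome II over 402 bases at 98.8% to 99% identity, and SPNCRNA.449 does over 338 bases at 98.5%. Reads from there could be counted here too. SPNCRNA.449, next to SPCP20C8.01c and identical over 364 bases to sequence at the right end, rose from 4 and 3 reads to 25 and 10 reads (log2 change 1.48 ± 0.34, adjusted p = 0.0185), and its call was lost when WT replicate 1 (0.0901) or spt6-1 replicate 1 (0.0726) was left out; it was named after its values were seen.

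The meiotic non-coding RNAs meu3 (left, minus strand) and meu19 (right, plus strand), whose names stand for meiotic expression upregulated, form another pair across the ends. Over 507 aligned columns they had 7 mismatches and 1 gap base, an identity of 98.4%. A 150-base window of each is printed to show how few letters could separate their reads, at chrIII:42244-42393 on the minus strand for meu3 and at chrIII:2419383-2419532 on the plus strand for meu19, from RefSeq ASM294v3 with the 2 differing positions in capitals.
meu3: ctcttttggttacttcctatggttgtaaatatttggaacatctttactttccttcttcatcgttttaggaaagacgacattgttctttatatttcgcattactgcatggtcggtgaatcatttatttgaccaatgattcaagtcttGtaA
meu19: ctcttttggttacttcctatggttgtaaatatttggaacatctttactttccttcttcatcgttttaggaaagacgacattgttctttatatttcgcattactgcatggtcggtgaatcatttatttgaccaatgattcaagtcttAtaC
The sense level of meu3 was 0.861 and 1.64 RPKM in WT against 2.35 and 5.76 RPKM in spt6-1, a log2 difference of 1.31 ± 0.43 that missed the threshold (adjusted p = 0.0634). That of meu19 was 1.23 and 3.18 RPKM in WT against 1.91 and 5.49 RPKM in spt6-1, with overlapping groups and a log2 difference of 0.59 ± 0.52 (adjusted p = 0.432). Both RNAs were low in every library, with 21 to 74 reads. In all, 9 of the 99 features had a near-identical copy elsewhere, and leaving them out left 12 of 41 tested features higher at the left end and 13 of 45 at the right.

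Across both ends, changes of sense RNA were mixed. At the left end 14 of the 46 tested features rose and 5 fell, and at the right end 14 of 48 rose and 5 fell, where a call is an adjusted p under 0.05 in a limma fit of all 6547 features with at least 1 RPKM in 2 libraries. Among all features tested there, 21.8% were called higher and 6.67% lower. The minimum of 1 RPKM could be met by the 2 spt6-1 libraries alone. Of the called features, SPCC757.02c, SPNCRNA.449, SPNCRNA.451 and mug9 were under it in both WT libraries. They were therefore tested only because they were higher in spt6-1. Without that minimum 15 of 50 rose and 3 fell on the left, and 14 of 49 rose and 5 fell on the right. The median log2 difference was 0.31 at the left end and 0.28 at the right, beside 0.16 over all tested features. Protein-coding genes split evenly on the left, where 5 of 30 rose and 5 fell with a median of 0.00, while 10 of 35 rose and 3 fell on the right, with a median of 0.34. Among all tested protein-coding genes 12.1% were higher and 8.2% lower. Fewer sense calls were left at either end when 1 library was left out. Such a fit has 1 library in a group, so a call could be lost with little change in its log2 value. Without WT replicate 1 or WT replicate 2 only 1 lower call was left at the left end, without spt6-1 replicate 1 it was 2 and without spt6-1 replicate 2 it was 3. At the right end 9 higher calls were left without spt6-1 replicate 2, and the lower calls went to 2 without WT replicate 2 or spt6-1 replicate 1 and to 3 without spt6-1 replicate 2. Quantile normalization gave 9 higher and 9 lower on the left, and 9 higher and 10 lower on the right.

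**Figure D1:**
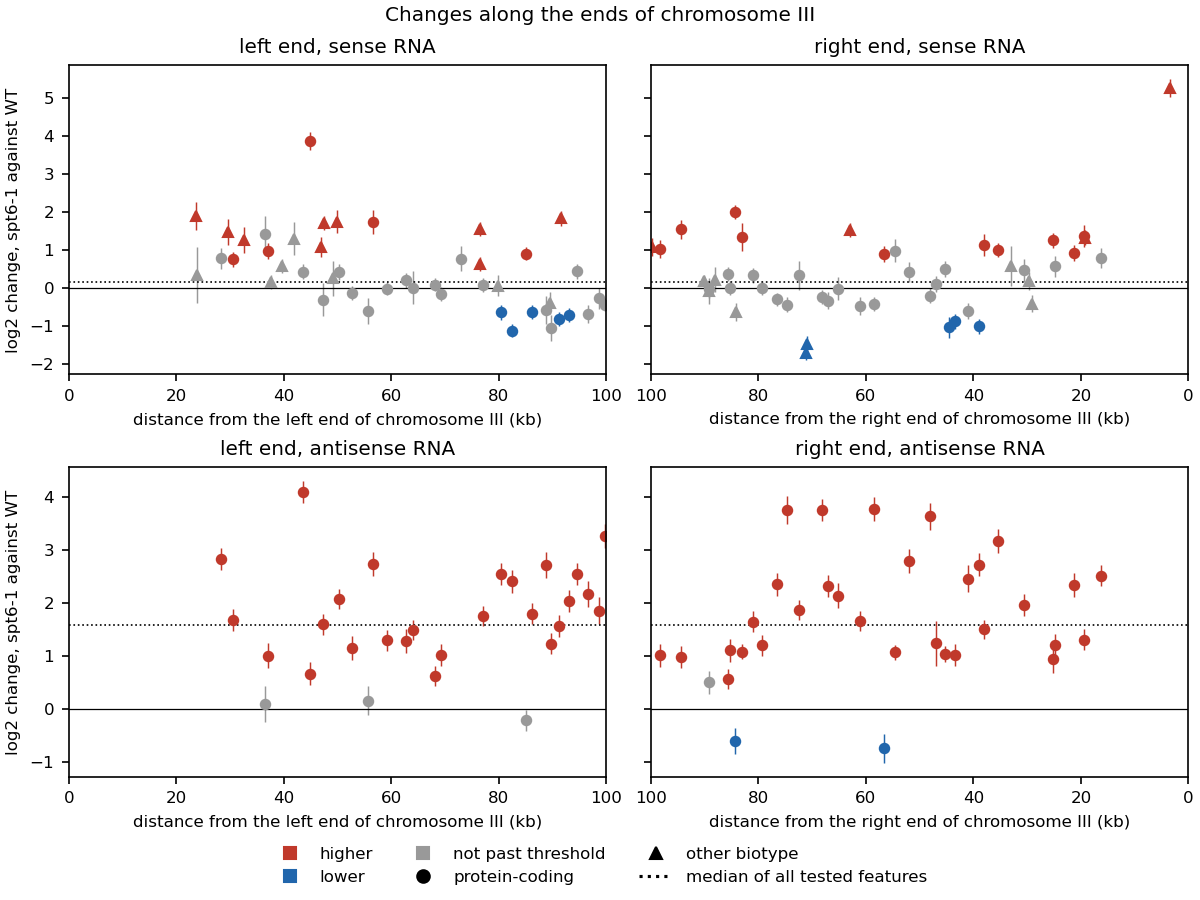
Log2 change in spt6-1 against WT (vertical axis) of each tested feature by its distance in kb from the left or right end of chromosome III (horizontal axis), sense above and antisense below. Points are limma estimates, bars their SE, colours the calls, and the dotted line the median of all tested features, 0.16 for sense and 1.58 for antisense; SPNCRNA.1299 stands alone at 5.26 beside the right end.

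The plot of log2 change by distance sets the calls along the chromosome, against 21.8% higher and 6.67% lower among all tested features. Between 25 and 50 kb from the left end 8 of 16 features rose and none fell, with a median of 1.03. Between 50 and 75 kb 1 of 10 rose, and between 75 and 100 kb 4 rose and 5 fell of 18, with a median of -0.41. All 5 left-end genes that fell, SPCC613.01, SPCC613.02, rng3, SPCC613.07 and SPCC613.08, lay in that last stretch. rng3, for a myosin chaperone and named here after its values were seen, went from 18 and 15.7 RPKM to 11.2 and 10.3 RPKM (-0.62 ± 0.18, adjusted p = 0.0441), and its call was lost without any library, at 0.189 and 0.0819 without WT replicates 1 and 2 and 0.122 and 0.173 without spt6-1 replicates 1 and 2. On the right, 4 of 6 features rose in the outermost 25 kb, with a median of 1.13, and 3 rose and 3 fell of 14 between 25 and 50 kb. Between 50 and 75 kb 2 of 13 rose and 2 fell, and between 75 and 100 kb 5 of 15 rose and none fell. These bins mix biotypes, and 57.8% of all tested non-coding RNAs rose against 12.1% of protein-coding genes. Among protein-coding genes alone, 3 of 7 rose between 25 and 50 kb from the left end. Then 1 of 10 rose between 50 and 75 kb, and 1 rose and 5 fell of 13 between 75 and 100 kb. On the right 2 of 4, 3 of 11, 1 of 10 and 4 of 10 rose from the end inward, and 3 of the 11 fell. No test of position was run, and the bins hold few features. Distances are from the ends of the assembled sequence, which lie in ribosomal RNA features, and may not be distances from the telomeres.

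The largest rise of a protein-coding gene was that of SPCC757.02c (chrIII:44814-46961, minus strand), annotated by RefSeq as an epimerase-type enzyme. It was at 0.311 and 0.379 RPKM in WT and at 11.0 and 12.9 RPKM in spt6-1. Both WT libraries were low and both mutant libraries well above them, a log2 change of 3.88 ± 0.23 (adjusted p = 8.94e-05). The whole of this gene, 2148 bases, lies inside and opposite to nic1 (chrIII:43480-46985, plus strand), which codes for a plasma membrane transporter of nickel. Sense reads of SPCC757.02c are therefore also antisense reads of nic1: SPCC757.02c had 663 and 478 sense reads in spt6-1, and nic1 had 1252 and 829 antisense reads, so these rises share reads in part.

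The catalase gene ctt1 (chrIII:56654-58865, minus strand), whose enzyme breaks down hydrogen peroxide, was the most abundant riser among protein-coding genes of the left end. Its sense RNA was at 76.2 and 68.9 RPKM in WT and at 317 and 185 RPKM in spt6-1. The groups did not overlap, although the mutant replicates were far apart, and the log2 change was 1.73 ± 0.31 (adjusted p = 0.00808). It is a known target of the stress-activated transcription factor Atf1, whose recognition element contains the letters TGACGT. The 231 bases upstream of its annotated transcript (chrIII:58866-59096, minus strand, RefSeq ASM294v3) are printed because they hold that run, in capitals, with its first base 27 bases before the start.
ctt1 upstream: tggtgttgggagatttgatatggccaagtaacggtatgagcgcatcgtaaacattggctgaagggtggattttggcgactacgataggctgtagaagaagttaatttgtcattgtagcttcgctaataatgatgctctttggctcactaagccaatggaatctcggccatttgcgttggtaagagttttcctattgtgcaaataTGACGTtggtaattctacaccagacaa
TGACGT, searched on both strands from 250 bases before to 50 bases after the start, was in 5.82% of 5122 protein-coding gene promoters and in 5 of the 65 at these ends. Of the 15 protein-coding genes that rose, 3 held it, ctt1, SPCC1884.01 and SPCC569.09, and none of the 8 that fell did. The other searches gave a TATA box (TATAAA) in 50.02% of all promoters and 6 of the 15, and a heat shock element (GAANNTTC) in 11.0% and 1 of the 15, SPCC569.04. The 8-base form TGACGTCA, which contains TGACGT, the run CCCCTC and the MluI box ACGCGT were in 0.391%, 2.07% and 3.05% of all promoters and in none of the 65. The HomolD box CAGTCACA, known from ribosomal protein genes, was in 2.48% of all and in 3 of the 65, all 3 ribosomal protein genes, rpl35, rpl902 and rpp103.

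On the right, SPCC70.08c (chrIII:2367804-2368636, minus strand), a predicted methyltransferase, rose most among protein-coding genes. Its sense RNA was at 7.65 and 9.13 RPKM in WT and at 35.2 and 34.7 RPKM in spt6-1, a log2 change of 2.00 ± 0.18 (adjusted p = 4.98e-04). The replicates of each strain lay close together. The opposite strand of the same gene, which is covered in full by SPNCRNA.1292, went the other way, from 40.9 and 46.5 RPKM to 34.4 and 23.5 RPKM (log2 change -0.61 ± 0.24, adjusted p = 0.0393). SPCC70.08c thus had more antisense than sense RNA in both WT libraries and more sense than antisense RNA in both mutant libraries, if only just in spt6-1 replicate 1. The antisense call had an adjusted p of 0.113 when WT replicate 2 was left out and of 0.265 when spt6-1 replicate 2 was, which moved the log2 change to -0.34, and so was lost in both cases.

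The small gene ecl1, which extends the chronological lifespan when its product is abundant, was at 3.27 and 5.14 RPKM in WT and at 14.0 and 12.0 RPKM in spt6-1 (log2 change 1.55 ± 0.25, adjusted p = 0.00481). Its annotated transcript overlaps SPCC70.05c on the same strand, so reads in the overlap belong to either; SPCC70.05c itself, the protein kinase gene nnk1, was at 37.1 and 46.0 RPKM in WT, against 47.7 and 35.3 in spt6-1, with overlapping groups. Nearby, mug9, named for meiotic upregulation, went from 0.355 and 0.0927 RPKM to 1.25 and 1.39 RPKM (log2 change 1.35 ± 0.36, adjusted p = 0.0337). The call of mug9 did not outlast the loss of any library, with adjusted p between 0.0692 (WT replicate 1) and 0.127 (WT replicate 2), and 0.0725 and 0.0723 without spt6-1 replicates 1 and 2. Under quantile normalization the log2 value of mug9 turned to -0.12.

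Protein-coding genes were grouped by the RefSeq product text. Of 12 uncharacterized or orphan genes at both ends 7 rose and none fell, with a median log2 difference of 0.86, beside 12.1% higher and 8.2% lower among all tested protein-coding genes. The pair SPCP20C8.01c and SPCC569.01c, which counts as 1 observation, was among those that did not pass. SPCC569.04 was at 5.21 and 4.37 RPKM in WT and at 11.1 and 13.3 RPKM in spt6-1 (log2 change 1.26 ± 0.20, adjusted p = 0.00478), with groups clearly apart. It lies wholly opposite SPCC569.05c, a transporter gene of the spermidine family, whose own sense RNA missed the threshold (0.58 ± 0.29, adjusted p = 0.181). SPCC569.02c went from 2.49 and 4.98 RPKM to 9.81 and 10.2 RPKM (1.38 ± 0.30, adjusted p = 0.0165), and SPCC1884.01 from 10.3 and 8.90 RPKM to 22.3 and 16.6 RPKM (0.97 ± 0.21, adjusted p = 0.0158). SPCC70.04c (1.04 ± 0.23, 0.0173), SPCC569.03 (0.92 ± 0.21, 0.0188), SPCP20C8.02c (0.76 ± 0.20, 0.0332) and SPCC569.09 (1.13 ± 0.28, 0.027) made up the rest. Apart from SPCC569.04, each of these calls was lost when 1 library was left out. For SPCC569.02c this was spt6-1 replicate 1 (0.0671) or 2 (0.0674), and for SPCC1884.01 WT replicate 2 (0.0696) or spt6-1 replicate 1 (0.0902). For SPCC70.04c it was WT replicate 1 (0.082), spt6-1 replicate 1 (0.0876) or 2 (0.0543), and for SPCC569.03 WT replicate 1 (0.0861) or spt6-1 replicate 1 (0.102). For SPCP20C8.02c it was WT replicate 1 (0.158), spt6-1 replicate 1 (0.0994) or 2 (0.136), and for SPCC569.09 WT replicate 1 (0.0565), WT replicate 2 (0.0997) or spt6-1 replicate 1 (0.108).

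Of the 6 transport genes none rose and 2 fell, beside 12.1% higher and 8.2% lower among all tested protein-coding genes. SPCC613.02 (chrIII:82501-84907, plus strand), annotated as a transporter, was at 40.6 and 41.3 RPKM in WT and at 19.2 and 18.2 RPKM in spt6-1. All 4 values were tight within their strain, and the log2 change of -1.11 ± 0.18 (adjusted p = 0.00546) was the only fall of a protein-coding gene at either end that stayed with each library left out in turn. Its neighbour and fellow transporter gene SPCC613.01 went from 38.7 and 43.0 RPKM to 26.4 and 25.8 RPKM (-0.64 ± 0.19, adjusted p = 0.0467). That call was lost without any library, at 0.0983 and 0.154 without WT replicates 1 and 2 and at 0.147 and 0.151 without spt6-1 replicates 1 and 2. The remaining transporter genes included nic1 at 18.4 and 23.6 RPKM in WT, against 28.8 and 28.2 in spt6-1, which missed the threshold (adjusted p = 0.154).

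Translation and ribosome genes counted 9, of which none rose and 2 fell, with a median log2 difference of -0.56. Among all tested protein-coding genes 12.1% were higher and 8.2% lower, with a median of 0.03. rpp103, which codes for a ribosomal protein of the P1 group, went from 484 and 412 RPKM to 212 and 225 RPKM (-1.03 ± 0.27, adjusted p = 0.0316). SPCC613.07, for a protein of snoRNA biogenesis, went from 9.98 and 8.89 RPKM to 5.26 and 5.11 RPKM (-0.80 ± 0.18, adjusted p = 0.0192). Neither call stood once a library was left out: rpp103 was then at 0.136 and 0.0698 (WT replicates 1 and 2) or 0.102 and 0.0727 (spt6-1 replicates 1 and 2), and SPCC613.07 at 0.109 and 0.0573 or 0.0757 and 0.0794. The large-subunit protein genes rpl35, at 2416 and 1861 RPKM in WT, against 1523 and 1354 in spt6-1, and rpl902, at 1035 and 1111 in WT and 427 and 630 in spt6-1, had no overlap between strains but missed the threshold (adjusted p = 0.303 and 0.0626).

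Of 11 metabolic genes 2 rose, SPCC70.08c and the aromatic aminotransferase gene SPCC569.07, and 1 fell. This lay near the 12.1% higher and 8.2% lower among all tested protein-coding genes. SPCC569.07 went from 6.38 and 5.76 RPKM to 13.7 and 11.9 RPKM (1.02 ± 0.18, adjusted p = 0.0082), and was at 0.0553 without spt6-1 replicate 1. The purine synthesis gene ade5 fell from 24.7 and 25.2 RPKM to 10.4 and 14.2 RPKM (-1.0 ± 0.21, adjusted p = 0.0133), and was at 0.0508 without WT replicate 2 and at 0.081 without spt6-1 replicate 1. The acetyl-CoA ligase gene SPCC1827.03c, which held the most reads of the right end, was at 455 and 587 RPKM in WT, against 873 and 490 in spt6-1, with overlapping groups. Among the genes with no group of their own, SPCC613.03, for a calcium-binding protein, rose from 14.9 and 13.3 RPKM to 26.7 and 27.2 RPKM (0.91 ± 0.18, adjusted p = 0.0106; 0.0515, 0.0548 and 0.0531 without WT replicate 2, spt6-1 replicate 1 and spt6-1 replicate 2). SPCC613.08, a regulator of a cyclin-dependent kinase, fell from 40.0 and 42.5 RPKM to 25.8 and 24.5 RPKM (-0.70 ± 0.19, adjusted p = 0.0321), with 0.0864 and 0.105 without WT replicates 1 and 2 and 0.108 and 0.1246 without spt6-1 replicates 1 and 2. The pseudogene SPCP20C8.03 rose from 13.3 and 6.96 RPKM to 29.7 and 19.5 RPKM (1.27 ± 0.34, adjusted p = 0.0327), and was at 0.112 without WT replicate 2, where the log2 change was 0.83, and at 0.153 without spt6-1 replicate 1.

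Of 15 tested non-coding RNAs at the left end 8 rose, 53.3%, and none fell, with a median log2 difference of 1.09. At the right end 4 of 13 rose and 2 fell, with a median of 0.19. Among all tested non-coding RNAs 57.8% were called higher and 1.44% lower, so the left-end count was near the share of all non-coding RNAs. Of the 13 that lie opposite a protein-coding gene at either end 7 rose and none fell, and of the other 15 tested 5 rose and 2 fell. SPNCRNA.1104 (chrIII:91505-94317, minus strand) was at 2.38 and 2.13 RPKM in WT against 9.65 and 9.06 RPKM in spt6-1 (log2 change 1.84 ± 0.20, adjusted p = 9.42e-04). It runs opposite to SPCC613.07 and SPCC613.08, which both fell in sense RNA, while their antisense RNA rose by reads that belong in part to SPNCRNA.1104. SPNCRNA.1100, opposite the glyoxylase III gene SPCC757.03c, rose from 6.52 and 5.73 RPKM to 22.8 and 19.99 RPKM (1.72 ± 0.18, adjusted p = 9.20e-04). SPNCRNA.1294, opposite SPCC1827.07c, rose from 4.04 and 4.59 RPKM to 13.9 and 12.9 RPKM (1.53 ± 0.18, adjusted p = 0.00154), and SPNCRNA.451, which overlaps no annotated feature, from 0.490 and 0.511 RPKM to 3.46 and 2.38 RPKM (1.75 ± 0.30, adjusted p = 0.00657).

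The 2 non-coding RNAs that fell are nested. SPNCRNA.523 (chrIII:2381299-2381802, minus strand) lies inside SPNCRNA.1293 (chrIII:2381012-2382004, same strand), which RefSeq describes as associated with a long terminal repeat, a retrotransposon remnant. SPNCRNA.523 was at 13.4 and 13.8 RPKM in WT and at 3.33 and 4.48 RPKM in spt6-1 (log2 change -1.69 ± 0.21, adjusted p = 0.00161). SPNCRNA.1293 was at 7.54 and 7.61 RPKM in WT and at 2.23 and 2.62 RPKM in spt6-1 (-1.47 ± 0.20, adjusted p = 0.00277). The shared stretch makes these 1 change counted under 2 names, and it was larger than any fall of a protein-coding gene at these ends.

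**Figure D2:**
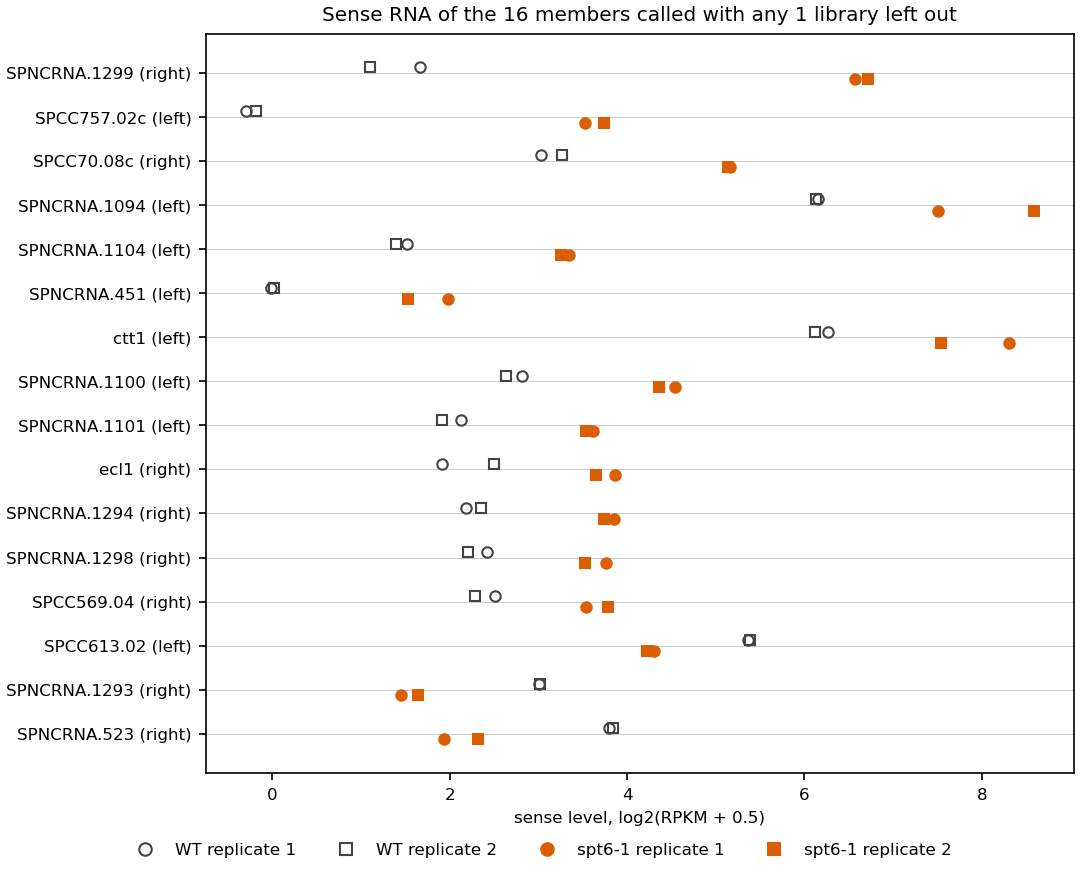
Sense level, log2(RPKM + 0.5), of the 16 features whose call stayed with each library left out in turn, with 1 point per library (open for WT, filled for spt6-1; circles replicate 1, squares replicate 2). The groups are apart in every row, with SPCC613.02, SPNCRNA.1293 and SPNCRNA.523 the ones lower in spt6-1.

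Antisense RNA rose over nearly all tested protein-coding genes of both ends. At the left end 26 of 29 tested genes rose and none fell, and at the right end 31 of 34 rose and 2 fell. The minimum for testing could be met by the spt6-1 libraries alone. Genes under it in both WT libraries were therefore tested only because they were high in spt6-1. Among these genes were nic1, SPCP20C8.01c, rpl35, ppk38, SPCC1827.02c and SPCC569.07. Without that minimum 27 of 30 rose on the left, and 32 of 35 rose and 2 fell on the right. The share over all 4728 tested protein-coding genes was 81.9% higher and 1.65% lower, so high counts were the rule across the table. The median log2 change was 1.68 on the left and 1.57 on the right, beside 1.58 over all tested genes, and 16 of 29 and 17 of 34 stood above that overall median. Centring each library on its median therefore left 5 higher and 14 lower on the left and 7 higher and 17 lower on the right, which counts the changes relative to that overall shift, and quantile normalization gave 8 higher and 9 lower on the left and 10 higher and 8 lower on the right. The median antisense level of the protein-coding genes was 0.721 and 0.866 RPKM in WT against 4.16 and 4.55 RPKM in spt6-1 at the left end, and 0.642 and 0.630 RPKM in WT against 5.18 and 3.98 RPKM in spt6-1 at the right end. Over all nuclear protein-coding genes it was 0.499 and 0.465 RPKM in WT against 3.99 and 3.44 RPKM in spt6-1. With each library left out in turn 23 of the 26 left calls and 28 of the 33 right calls stayed.

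Antisense RNA over nic1 rose most among the tested genes of the left end. The antisense level of nic1 was 0.318 and 0.299 RPKM in WT against 12.8 and 13.7 RPKM in spt6-1, a log2 change of 4.08 ± 0.20 (adjusted p = 6.57e-07) that includes the sense reads of SPCC757.02c. The antisense of ctt1 went from 0.642 and 0.421 RPKM to 6.62 and 5.99 RPKM (2.73 ± 0.22, adjusted p = 3.11e-06) along with its sense rise. SPCP20C8.01c, whose reads may be shared with its right-end copy, went from 0.148 and 0.258 RPKM to 4.47 and 4.42 RPKM (2.82 ± 0.21, adjusted p = 2.28e-06). rpl35 was listed at 0 antisense in both WT libraries and at 3.62 and 2.08 RPKM in spt6-1 (adjusted p = 5.75e-06).

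At the right end 4 genes had antisense changes of similar size. ppk38, for a protein kinase, went from 0.142 and 0.350 RPKM to 8.98 and 10.0 RPKM (log2 change 3.76 ± 0.23, adjusted p = 1.12e-06). SPCC1827.02c, for an enzyme of phosphatidylcholine synthesis, went from 0.0586 and 0.0917 RPKM to 9.49 and 5.45 RPKM (3.75 ± 0.27, adjusted p = 2.05e-06). SPCC1827.04, which codes for Vms1, went from 0.499 and 0.824 RPKM to 14.8 and 15.0 RPKM (3.75 ± 0.21, adjusted p = 1.01e-06). These 3 differ by less than their errors. apl4, for a subunit of the AP-1 adaptor of vesicle transport, reached the highest antisense level of them, from 3.002 and 2.94 RPKM to 54.2 and 33.0 RPKM (3.62 ± 0.25, adjusted p = 1.73e-06), against 47.6 and 52.5 RPKM of sense RNA in spt6-1. None of the 4 passed the threshold on the sense strand, where ppk38 was at -0.41, SPCC1827.02c at -0.43, SPCC1827.04 at -0.22 and apl4 at -0.19. SPCC569.07 rose on both strands, its antisense from 0.383 and 0.376 RPKM to 6.49 and 8.38 RPKM (3.16 ± 0.22, adjusted p = 1.77e-06).

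**Figure D3:**
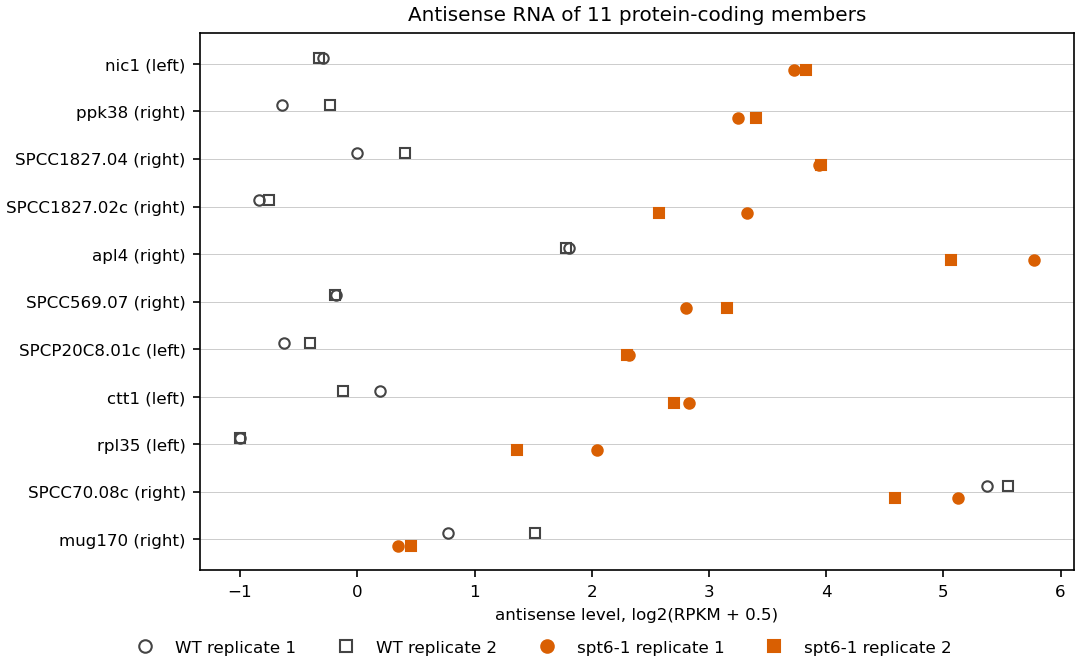
Antisense level, log2(RPKM + 0.5), of 11 protein-coding genes, with 1 point per library (open for WT, filled for spt6-1; circles replicate 1, squares replicate 2). 9 genes lie higher in both spt6-1 libraries; SPCC70.08c and mug170, at the bottom, lie lower.

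By role, antisense RNA rose over all 6 transport genes, all 8 tested translation and ribosome genes, 10 of 11 metabolic genes, with 1 lower, and 11 of 12 uncharacterized genes, where 81.9% of all tested genes rose. Among the transport genes SPCC613.01 went from 0.863 and 0.980 RPKM to 8.57 and 7.12 RPKM (2.55 ± 0.21, adjusted p = 3.35e-06) and SPCC613.02 from 0.648 and 0.845 RPKM to 6.49 and 5.68 RPKM (2.40 ± 0.21, adjusted p = 5.22e-06), the genes of that group that fell in sense RNA. ade5 did the same, with antisense RNA from 2.62 and 2.33 RPKM to 22.5 and 16.04 RPKM (2.71 ± 0.22, adjusted p = 3.23e-06), and ended with more antisense than sense RNA in both mutant libraries. The 2 genes whose antisense RNA fell were SPCC70.08c, above, and mug170, for an arrestin-type membrane adaptor. mug170 went from 1.21 and 2.37 RPKM to 0.775 and 0.875 RPKM (-0.74 ± 0.27, adjusted p = 0.0269), and both WT libraries moved the value: it went to -1.11 when WT replicate 1 was left out and to -0.37 when WT replicate 2 was. The call was lost when any of the others was left out, at 0.315 (WT replicate 2), 0.181 (spt6-1 replicate 1) and 0.133 (spt6-1 replicate 2). The smallest antisense changes were those of new22 (0.09 ± 0.34, adjusted p = 0.802) and SPCC757.06 (0.15 ± 0.28, adjusted p = 0.615) on the left, and of SPCC70.05c (0.50 ± 0.21, adjusted p = 0.0528) and SPCC70.06 on the right. SPCC70.06 rose by 0.57 ± 0.19 (adjusted p = 0.0175), a call lost without any library, at 0.052 and 0.0824 without WT replicates 1 and 2 and 0.0579 and 0.07 without spt6-1 replicates 1 and 2. Its log2 value was -1.52 with median centring and -0.95 with quantile normalization. Single libraries set the sign of the left-end pair: new22 ranged from -0.41 without WT replicate 2 to 0.60 without WT replicate 1. SPCC757.06 ranged from -0.29 without spt6-1 replicate 2 to 0.60 without spt6-1 replicate 1, where it passed (adjusted p = 0.0415). SPCC70.05c passed without spt6-1 replicate 2 (0.64, adjusted p = 0.0442).

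The antisense of a gene with an annotated neighbour on the other strand includes that neighbour's own RNA. Among protein-coding genes that overlap no annotated feature on the opposite strand, antisense rose in 7 of 9 tested on the left and 17 of 17 on the right, with medians of 2.16 and 2.34. Among those with such an overlap it rose in 19 of 20 on the left and 14 of 17 on the right, with medians of 1.53 and 1.20. Over all tested protein-coding genes of both kinds 81.9% rose, with a median of 1.58. The share over the whole table was not taken for each kind apart. Antisense exceeded sense RNA in 2 and 2 of the 30 left-end genes in WT and in 6 and 5 in spt6-1, and in 3 and 2 of the 35 right-end genes in WT and in 4 and 4 in spt6-1. Over all nuclear protein-coding genes the share went from 9.57% and 9.27% in WT to 13.1% and 13.5% in spt6-1. SPCC757.02c and SPCC569.04, both lying wholly inside an opposite gene, had more antisense than sense RNA in all 4 libraries.

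The same counts were taken within 100 kb of the ends of chromosomes I and II. There 98 of 121 tested protein-coding genes rose on the sense strand and none fell, with a median log2 change of 2.91, against 5 and 10 risers and medians of 0.00 and 0.34 at the left and right ends of chromosome III. The median sense level of protein-coding genes at the ends of chromosomes I and II was 3.57 and 1.71 RPKM in WT against 27.7 and 25.3 RPKM in spt6-1. At the left end of chromosome III it was 18.2 and 17.2 RPKM in WT, against 22.1 and 18.3 in spt6-1, and at the right end 20.2 and 21.4 RPKM in WT, against 24.3 and 27.8 in spt6-1. Both chromosome III medians were below that of all nuclear protein-coding genes in WT, 27.1 and 28.3 RPKM. The next 100 kb inward on chromosome III had 7 risers and 8 fallers among 75 tested protein-coding genes and a median of 0.09. On the antisense strand 111 of 114 genes rose at the ends of chromosomes I and II, with a median of 2.39, and 58 of 71 rose and 2 fell in the inner stretch of chromosome III, with a median of 1.59. No test of the difference between regions was run, since genes of a region are not replicates. Distances ran from the ends of the assembled sequence, which on chromosome III lie in ribosomal RNA features. Like distances on different chromosomes may therefore not be like distances from the telomeres. The counts for chromosomes I and II were not repeated without near-identical copies, and reads shared between copies may enter them.

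**Figure D4:**
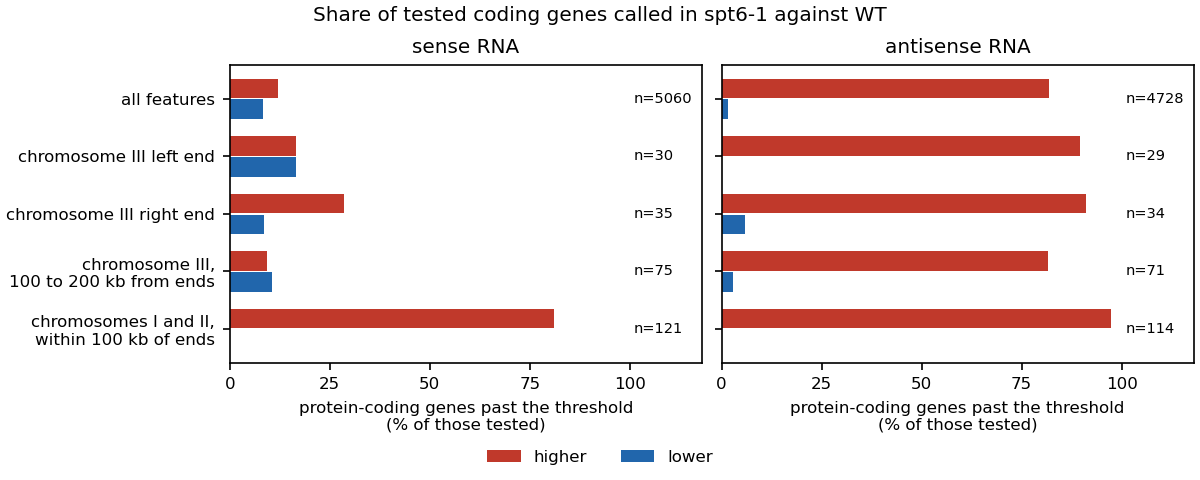
Percent of tested protein-coding genes (horizontal axis) called higher or lower in spt6-1 against WT in each region, sense on the left and antisense on the right, with the number tested beside each pair of bars. Of the genes near the ends of chromosomes I and II 81.0% rose in sense RNA, against 16.7% at the left end and 28.6% at the right end of chromosome III.

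A list of 35 genes with known ties to silencing at chromosome ends was counted. It holds the shelterin genes that cap telomeres, the Clr4 complex, heterochromatin proteins and histone deacetylases, and also epe1 and leo1, which are known to oppose heterochromatin, and the elongation factor gene ell1. On the sense strand 1 rose and 2 fell, with a median log2 difference of -0.05, beside 12.1% higher and 8.2% lower among all tested protein-coding genes. ell1, for a subunit of an elongation complex, rose from 46.6 and 53.1 RPKM to 121 and 141 RPKM (adjusted p = 0.00542). chp1, for a chromodomain protein of the silencing complex, fell from 7.81 and 6.997 RPKM to 4.02 and 3.15 RPKM (-0.96 ± 0.21, adjusted p = 0.0167), and clr6, for a histone deacetylase, from 68.2 and 56.8 RPKM to 31.4 and 37.4 RPKM (-0.85 ± 0.22, adjusted p = 0.0284). Leaving out WT replicate 1 (0.0954), WT replicate 2 (0.0544) or the second spt6-1 library (0.0777) lost the chp1 call, and leaving out WT replicate 1 (0.118), the first spt6-1 library (0.137) or the second (0.0587) lost that of clr6. On the antisense strand 30 of 34 rose and none fell, a count near the 81.9% of all tested genes. Their median was 2.77, above the 1.58 of all tested genes, and this difference was not tested.

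As a share of all sense reads outside ribosomal RNA, the left end took 0.459% and 0.443% in WT and 0.324% and 0.405% in spt6-1. The right end took 0.386% and 0.426% in WT and 0.425% and 0.404% in spt6-1. The left shares were lower in both mutant libraries and the right shares overlapped, with exact two-sided permutation p = 0.33 and p = 1, where 0.33 is the smallest that 2 against 2 libraries can give. The gene rpl35 held 18.65% to 31.16% of the left-end sense reads. Without rpl35 the left difference went from -0.0864 to -0.0344 percentage points. As a share of antisense reads of protein-coding genes, the left end took 0.216% and 0.217% in WT and 0.356% and 0.415% in spt6-1, and the right end 0.183% and 0.186% in WT and 0.424% and 0.418% in spt6-1 (exact permutation p = 0.33 for each). Over protein-coding rows both ends held a larger part of the antisense reads in both mutant libraries. With all biotypes other than ribosomal RNA the left-end difference turned from 0.169 to -0.403 percentage points.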

How the data were processed

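Sense and antisense values of 7023 features in 4 libraries were analysed. The authors deposited them as RPKM, already scaled per library, and reads were mapped with TopHat to build ASM294v2, per the submitters' processing notes. Multiplying by feature length and by each library's scale gave whole reads within 0.01 for 100% of values, from which read numbers were recovered. RPKM values were tested with limma 3.58.1 (R 4.3.3) on log2(RPKM + 0.5), spt6-1 against WT, with a mean trend and two-sided p-values adjusted by Benjamini-Hochberg over all tested features. Tested sense features had at least 1 RPKM in 2 libraries, and tested antisense rows, protein-coding only, at least 0.5. Either minimum could be met by the 2 spt6-1 libraries alone, as for SPCC757.02c on the sense and rpl35 on the antisense strand. The 5 members under the sense minimum were SPNCRNA.452, SPNCRNA.453, SPCTRNAHIS.03, prl22 and prl40, and the 2 under the antisense minimum were SPCC757.12 and rpp103. Copies were found with BLAST+ 2.17.0 at 95% identity or more over at least 50 bases and 50% of the feature. Sequences, product texts (found for 97 of 99 members) and coordinates of copies come from RefSeq ASM294v3, in which all 65 protein-coding members read from ATG to stop at the files' positions.

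The members, lists and named-gene rule were chosen with earlier results of these data known. The rule named, at each end, up to 6 largest called sense rises, 4 falls, 5 antisense rises and 2 falls, the 3 outermost protein-coding genes, the 2 smallest changes on each strand, and up to 4 examples of each role group; 1 gene that it names is not reported here. Alternatives were other pseudocounts (0.1 and 1), filters, scalings, voom on recovered reads, a replicate block, each library left out, and counts without copies or opposite-strand overlaps, the last chosen after seeing the data. No label ties same-numbered libraries. The script for the fit was tested on simulated data. The deposited splice junction list was not used.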

Additional observations from a re-analysis of the deposited data

How the results depend on the processing

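With 2 libraries per strain, leaving 1 out leaves 1 library in a group, so a call could be lost with little change in its log2 value. Leaving out each library in turn gave 9 to 12 higher and 1 to 3 lower sense calls at the left end (14 and 5 with all libraries), 7 to 12 and 2 to 4 at the right end (14 and 5), and 24 to 26 and 28 to 29 higher antisense calls (26 and 31). Quantile normalization gave 9 higher and 9 lower sense calls on the left, 9 and 10 on the right, and 8 and 10 higher and 9 and 8 lower antisense calls. Median centring gave 5 and 7 higher and 14 and 17 lower antisense calls, since it removes the shift of the typical gene. Without a filter on low values 3 sense calls were lower on the left. Genes that overlap no opposite-strand feature, fewer in number, gave 7 and 17 antisense rises. Rescaling to sense reads outside ribosomal RNA gave 10 and 11 sense rises. With the replicate number as a block there were 19 and 15 higher and 5 and 5 lower sense calls, and 26 and 32 antisense rises. Deviations of same-numbered libraries correlated at 0.32 (sense) and 0.20 (antisense), and their read numbers were alike. Sense reads were 36520471 (WT) and 39693042 (spt6-1) for number 1, against 17093322 and 16894607 for number 2. There are only 2 pairs, no label ties them, and the main fit had no block. Read shares changed sign, by an untested cause unless said: the left antisense difference of 0.169 percentage points became -0.403 with all biotypes, where SPNCRNA.1103 counts rpl902 sense reads, and the right sense difference of 0.00842 became -0.00531 without SPCC1827.03c, -0.0116 without WT replicate 1 and -0.00207 without spt6-1 replicate 1 (range over libraries left out -0.0116 to 0.0284). Median centring reversed the antisense changes of SPCC569.06 (-0.14), SPCC70.06 (-1.52), SPCC757.04 (-0.021) and SPCC757.13 (-0.34). Quantile normalization reversed those of SPCC70.06 (-0.95) and of mug9 sense (-0.12).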
